A study of Homo sapiens with 60 samples.

Results

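The aryl hydrocarbon receptor (AHR) and 7 genes tied to it were followed in HT29 cells, an established line from a human colorectal adenocarcinoma, after 24 h with herbal ethanol extracts. The 8 genes were chosen by symbol from a table of 60675 genes: the targets CYP1A1, CYP1B1, AHRR, TIPARP, ALDH3A1 and UGT1A6, the receptor gene AHR and its partner ARNT. All 8 were among the 16978 genes that passed the filter on low counts. They were put forward with the high-dose changes of these data known, so their high-dose levels are described below with no test. The vehicle group has 3 libraries from cells given DMSO. Menthae Herba, Saposhnikoviae Radix, Saengmaek-san and Guibi-tang have 3 libraries at each of 500, 100 and 20 µg/mL, and Soyo-san has 2 at each of these doses. Polygalae Radix was given at 380, 76 and 15.2 µg/mL, with 2 libraries a dose. Aucklandiae Radix, also with 2 libraries a dose, was given at 370, 74 and 14.8 µg/mL. Okbyeongpung-san has 1 at each of 500, 100 and 20 µg/mL. Names ending in Radix or Herba are single herbs and the other 4 are formulas. High, medium and low below mean these 3 doses in falling order. All cells are of 1 line, and whether replicate libraries came from different cultures is not in the labels. The p-values therefore rest on the spread among libraries, which may be technical.

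The receptor sits in the cytosol with chaperones until a small planar molecule binds it. It then enters the nucleus, pairs with ARNT and binds a short DNA element, the xenobiotic response element, near its target genes. CYP1A1 and CYP1B1 encode cytochrome P450 enzymes that oxidise polycyclic and aromatic compounds. ALDH3A1 encodes an aldehyde dehydrogenase and UGT1A6 an enzyme that joins glucuronic acid to phenols. AHRR, a repressor that competes for ARNT, and TIPARP, an ADP-ribosyltransferase that marks the receptor for loss, both limit the response. In the gut, dietary plant compounds are among the receptor's known ligands.

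On GRCh38, CYP1A1 (ENSG00000140465) lies on chromosome 15 from 74719542 to 74725610 on the minus strand. CYP1B1 (ENSG00000138061) lies on chromosome 2 from 38066973 to 38109902 on the minus strand. AHRR (ENSG00000063438) spans 304176 to 438291 on chromosome 5 and TIPARP (ENSG00000163659) 156673235 to 156706770 on chromosome 3, both on the plus strand. ALDH3A1 (ENSG00000108602) spans 19737984 to 19748943 on chromosome 17 on the minus strand. UGT1A6 (ENSG00000167165) spans 233691607 to 233773300 on chromosome 2 on the plus strand, AHR (ENSG00000106546) 16916359 to 17346152 on chromosome 7 on the plus strand, and ARNT (ENSG00000143437) 150809705 to 150876768 on chromosome 1 on the minus strand. The 4 windows below are the 250 bases before a transcription start, from RefSeq on GRCh38.p14, shown because they hold the core of the response element in 4 targets that differed between groups. Capitals mark the core, GCGTG or its reverse complement CACGC, searched on both strands. The first is CYP1A1, chr15:74725529-74725778, minus strand. The others are the first listed starts of AHRR, chr5:321464-321713, of TIPARP, chr3:156674340-156674589, and of UGT1A6, chr2:233691452-233691701, all on the plus strand.
CYP1A1: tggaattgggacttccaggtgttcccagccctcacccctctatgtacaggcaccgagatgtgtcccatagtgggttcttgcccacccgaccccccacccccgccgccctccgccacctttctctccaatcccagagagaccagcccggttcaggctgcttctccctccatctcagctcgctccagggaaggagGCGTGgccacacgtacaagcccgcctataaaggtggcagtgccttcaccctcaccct
AHRR: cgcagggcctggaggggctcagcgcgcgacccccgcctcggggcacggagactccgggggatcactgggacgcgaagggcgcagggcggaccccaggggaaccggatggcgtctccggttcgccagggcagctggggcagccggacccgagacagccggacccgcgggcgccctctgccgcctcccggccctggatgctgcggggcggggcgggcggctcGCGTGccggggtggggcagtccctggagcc
TIPARP: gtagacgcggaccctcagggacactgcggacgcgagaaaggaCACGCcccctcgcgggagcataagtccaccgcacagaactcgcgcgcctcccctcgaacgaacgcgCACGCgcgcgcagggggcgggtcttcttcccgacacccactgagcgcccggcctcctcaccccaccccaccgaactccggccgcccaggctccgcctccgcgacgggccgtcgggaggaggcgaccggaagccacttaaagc
UGT1A6: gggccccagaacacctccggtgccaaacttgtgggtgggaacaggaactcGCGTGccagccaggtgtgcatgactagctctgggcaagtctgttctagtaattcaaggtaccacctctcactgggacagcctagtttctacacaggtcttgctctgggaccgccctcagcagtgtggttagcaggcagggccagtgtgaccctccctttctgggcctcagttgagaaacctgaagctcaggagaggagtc

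The table of windows held 10 starts for 6 of the 8 genes, and 5 of the 10 had the core, against 32.2% of all 35116 windows. The longer form TNGCGTG, which includes the core, was in the AHRR and UGT1A6 windows printed above, against 4.52% of all windows. The single windows of AHR and ARNT held no core. A match of letters is a description and says nothing of binding here.

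Library totals ran from 18690501 to 36796414 counts over 59 libraries. The library labelled Saposhnikoviae Radix low replicate 2 (17079221 counts) stood apart, with a highest correlation of 0.8501 to a library of its group, and was set aside. The next lowest such value was 0.9946, among libraries with a group mate. It held TIPARP at 7.71, AHR at 15.2 and UGT1A6 at 3.02 CPM (counts scaled to a common library total), all below every other library. All 7 markers of colon epithelium were present, with vehicle means of 4.47 to 7397 CPM, while the 5 fibroblast markers summed to 1.51 to 3.43 CPM, the 5 blood cell markers to 1.21 to 4.2 CPM and the 4 hepatocyte markers to 0.122 to 0.88 CPM. The vehicle libraries carry a set number of their own in their names, so a difference between extract and vehicle and one between sets cannot be told apart. The same holds for a difference between extracts of different sets, at any dose.

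CYP1A1 was scarce in vehicle cells and about 10 times more abundant at the high dose of 2 herbs. The 3 vehicle libraries held 0.689, 0.713 and 0.59 CPM, from 16 to 25 reads each. Menthae Herba at high dose held 8.47, 7.74 and 6.38 CPM and Aucklandiae Radix at high dose 7.45 and 6.81 CPM. These groups overlapped each other and no library of another group. Against their own low doses the fitted log2 differences were 3.44 ± 0.20 (SE) for Menthae Herba and 3.69 ± 0.26 for Aucklandiae Radix, or 10.9-fold and 12.9-fold. In bulk RNA, a gene that is higher in each cell and one expressed by more of the cells cannot be told apart.

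The other high-dose groups formed a graded order in CYP1A1. The single Okbyeongpung-san library held 4.82 CPM. Guibi-tang held 3.66, 3.4 and 4.61 CPM and Saposhnikoviae Radix 3.44, 3.88 and 3.5 CPM, which overlapped each other. Soyo-san held 2.92 and 2.71 CPM, and Saengmaek-san 1.64, 1.65 and 1.59 CPM, each apart from its neighbours in the order. All of these libraries stood above every vehicle, low-dose and medium-dose library. High minus low on the log2 scale was 2.56 ± 0.21 (SE) for Guibi-tang, 2.36 ± 0.25 for Saposhnikoviae Radix, 2.06 ± 0.27 for Soyo-san and 1.40 ± 0.25 for Saengmaek-san.

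Polygalae Radix was the exception among the high doses. Its 2 libraries held 0.881 and 0.255 CPM of CYP1A1, from 19 and 6 reads, on either side of the vehicle range. High minus low was 0.40 ± 0.40 (SE) on the log2 scale, a difference within the spread of its libraries. The value rests on 1 library: without replicate 3 it was 1.065, and without replicate 2 it was -0.72.

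**Figure D1:**
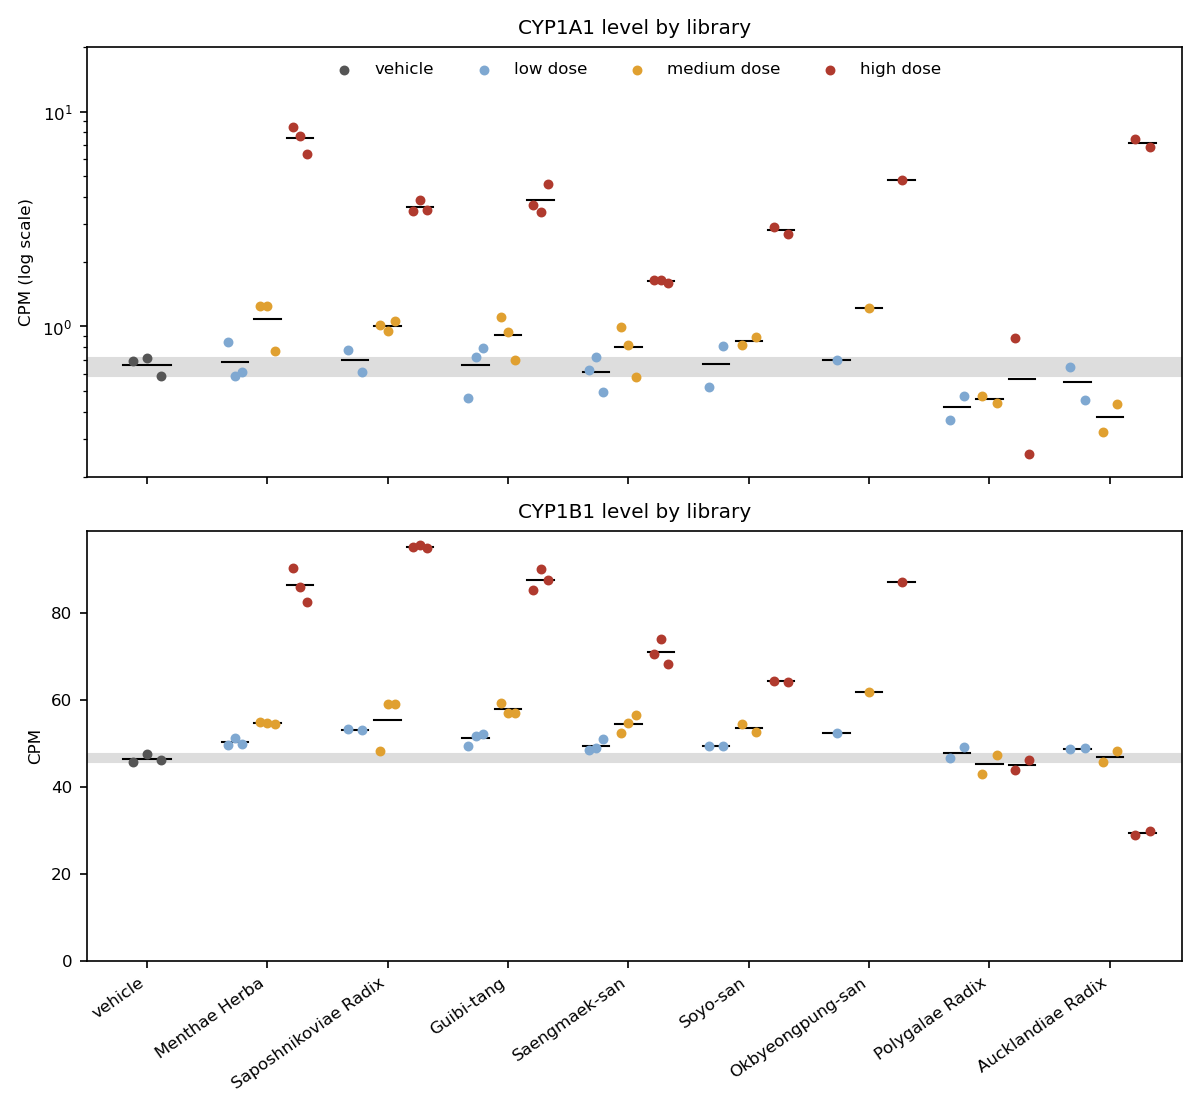
CYP1A1 (upper panel, CPM on a log axis) and CYP1B1 (lower panel, CPM on a linear axis) in each library, 1 point per library, with vehicle at the left and low, medium and high dose for each extract. Black lines are group means and the grey band is the range of the 3 vehicle libraries. Menthae Herba and Aucklandiae Radix have the highest CYP1A1 levels, means of 7.53 and 7.13 CPM, while Aucklandiae Radix at high dose has the lowest CYP1B1 levels.

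At medium dose CYP1A1 passed the test against low dose in none of the 7 extracts with more than 1 library. Their group means at medium dose ran from 0.379 ± 0.0808 CPM (SD, n = 2) in Aucklandiae Radix to 1.09 ± 0.274 (SD, n = 3) in Menthae Herba, with 8 to 34 reads a library. Menthae Herba held 1.24, 1.25 and 0.771 CPM at medium dose against 0.847, 0.591 and 0.617 at low dose, and the libraries overlapped. The fitted log2 difference was 0.66 with a 95% interval of 0.15 to 1.17, and the adjusted p was 0.652 (edgeR quasi-likelihood test, Benjamini-Hochberg). In the other 6 extracts the difference ran from -0.53 to 0.52, with adjusted p of 0.588 to 1. The highest upper bound of the 95% intervals was 1.17, in Menthae Herba, and the widest interval was that of Polygalae Radix, from -0.72 to 0.96. Outside Polygalae Radix the high-dose differences given above all lay over the upper bound of the medium dose of their extract.

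CYP1B1 was far more abundant than CYP1A1 and moved over a narrower range. Per kilobase of exon, vehicle libraries held 7.73 CPM of CYP1B1 and 0.193 CPM of CYP1A1. Saposhnikoviae Radix at high dose had the highest CYP1B1, 95.4, 95.7 and 95 CPM, against 45.7, 47.5 and 46.2 CPM in the vehicle. Guibi-tang (85.3, 90.3 and 87.7 CPM), Menthae Herba (90.5, 86.2 and 82.7 CPM) and the Okbyeongpung-san library (87.2 CPM) came next and did not separate. Saengmaek-san (70.7, 74 and 68.3 CPM) and Soyo-san (64.3 CPM in both libraries) followed, each without overlap with its neighbours. Polygalae Radix at high dose held 43.8 and 46.1 CPM, overlapping the vehicle.

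Aucklandiae Radix at high dose was the group with the lowest CYP1B1, apart from the vehicle and all others. Its 2 libraries held 28.9 and 29.8 CPM, below every other one of the 59 libraries. High minus low was -0.74 ± 0.06 (SE) on the log2 scale, while CYP1A1 was higher by 3.69 in the same libraries. The CYP1B1 gene overlaps RMDN2 and CYP1B1-AS1 on the opposite strand, whose mean counts were 84.2 and 79 against 1412 for CYP1B1, and the strand setting of the counting is not given in the sources used here.

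CYP1B1 at medium dose passed the test in none of the 7 extracts against low dose. The differences ran from -0.09 in Polygalae Radix to 0.18 ± 0.05 (SE) in Guibi-tang on the log2 scale. Guibi-tang held 59.3, 57.1 and 57.2 CPM at medium dose and 49.5, 51.9 and 52.2 at low dose, with no overlap, but the adjusted p was 0.185 (edgeR). One medium-dose library of Saposhnikoviae Radix, replicate 1, held 48.4 CPM against 59.1 and 59.2 in its group mates, and it was also the lowest of its group in AHR.

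**Figure D2:**
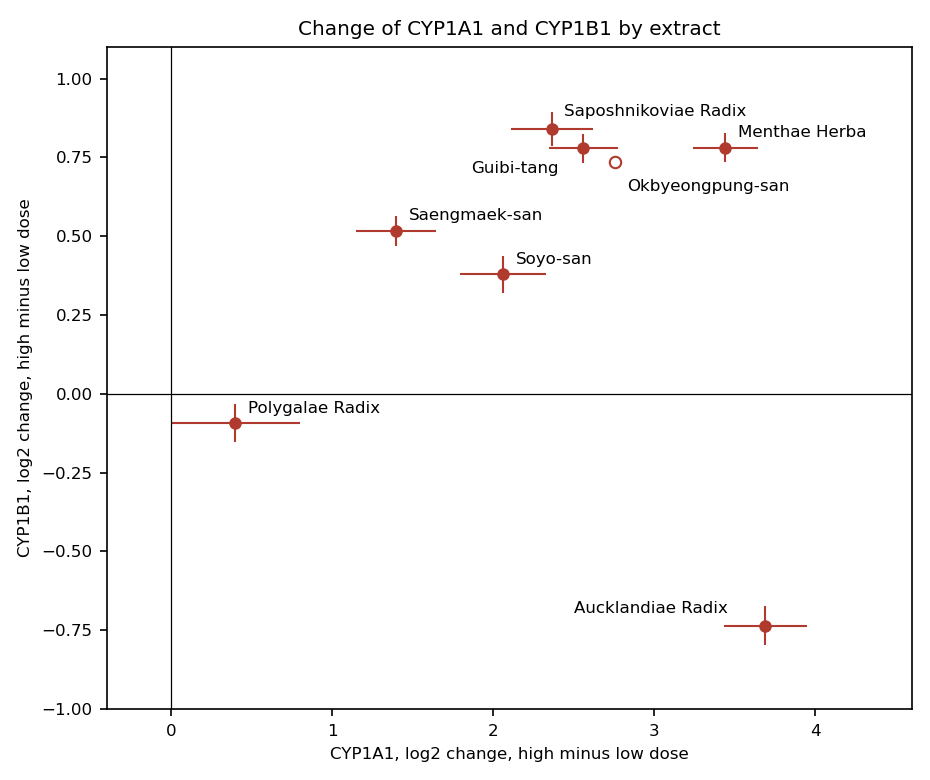
Log2 difference between high and low dose of CYP1A1 (horizontal axis) and CYP1B1 (vertical axis), 1 point per extract, with bars of 1 SE from the fit. The open point is Okbyeongpung-san, with 1 library a dose and no error. Aucklandiae Radix lies at 3.69 and -0.74, alone in the lower right, and Menthae Herba at 3.44 and 0.78.

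The level of CYP1A1 relative to CYP1B1 differed widely between extracts at high dose. Per kilobase of exon, CYP1A1 was 2.5% ± 0.229 (SD, n = 3) of CYP1B1 in the vehicle. It was 42.6% ± 3.6 (SD, n = 2) in Aucklandiae Radix at high dose, 15.2% ± 1.51 (SD, n = 3) in Menthae Herba and 9.68% in the Okbyeongpung-san library. Guibi-tang at 7.77% ± 1.33 (SD, n = 3), Soyo-san at 7.66% ± 0.405 (SD, n = 2) and Saposhnikoviae Radix at 6.62% ± 0.415 (SD, n = 3) lay close together. Saengmaek-san was at 4.02% ± 0.104 (SD, n = 3). Polygalae Radix was at 2.24% ± 1.81 (SD, n = 2). Its libraries, at 3.52% and 0.967%, lay on either side of the vehicle range of 2.24% to 2.64%.

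Extracts of 1 set, compared at their high doses, ranked in opposite order by CYP1A1 and CYP1B1 in 2 of 3 pairs. Menthae Herba exceeded Saposhnikoviae Radix in CYP1A1 by 1.06 ± 0.16 (SE) on the log2 scale, and the same difference in CYP1B1 was -0.14 ± 0.05, with no overlap of libraries in either gene. Saengmaek-san lay below Guibi-tang in both, with log2 differences of -1.26 ± 0.19 in CYP1A1 and -0.31 ± 0.05 in CYP1B1. Polygalae Radix minus Aucklandiae Radix was -3.67 ± 0.26 in CYP1A1 and 0.62 ± 0.06 in CYP1B1.

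At the lower doses the ratio was tested, since the high-dose libraries, by which these genes came to notice, do not enter there. The genes were still chosen with earlier results of these data known, so the test is not free of that choice. Over the 18 medium-dose libraries of 7 extracts, the log2 ratio of CYP1A1 to CYP1B1 differed between extracts (permutation test of the one-way F statistic, 100000 resamples, 2 tests adjusted together, adjusted p = 0.0278). Over 17 low-dose libraries it did not pass (adjusted p = 0.516, same permutation test). The medium-dose result came with a low ratio in both herbs of set 11, Polygalae Radix (mean log2 ratio -6.56) and Aucklandiae Radix (-6.89), whose doses were also lower. The same herbs had the lowest means at low dose, -6.78 in Polygalae Radix and -6.44 in Aucklandiae Radix. The other 5 extracts then ran from -6.30 to -6.175. Among the 5 extracts at 100 µg/mL, whose means ran from -6.09 to -5.66, the permutation p was 0.527 before adjustment. Leaving out 1 library gave adjusted p from 0.0115 to 0.135 in the same permutation test, the highest without Aucklandiae Radix medium replicate 2, and 7 of the 18 were at or above 0.05.

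Within each set there are too few libraries for the medium-dose ratios of the paired extracts to reach a p under 0.05. Menthae Herba minus Saposhnikoviae Radix was 0.09 (exact permutation test, two-sided, p = 0.8; smallest possible 0.1) and Saengmaek-san minus Guibi-tang was -0.12 (exact permutation p = 0.7; smallest possible 0.1). Polygalae Radix minus Aucklandiae Radix was 0.33, with no overlap of libraries, and its exact permutation p of 0.333 is the smallest that 2 libraries against 2 can give. Between sets, extract and set cannot be told apart in the medium-dose difference.

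**Figure D3:**
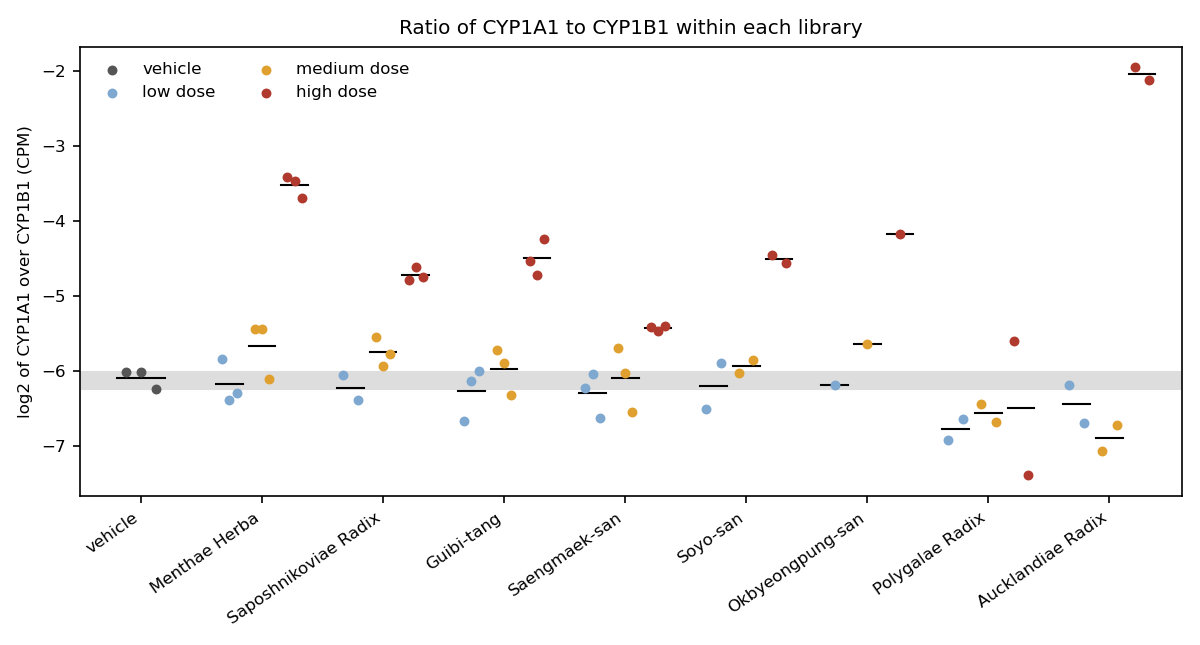
Log2 of CYP1A1 CPM over CYP1B1 CPM (vertical axis) in each library, by extract, with dose by colour. Black lines are group means and the grey band is the vehicle range. At high dose the means run from -6.50 in Polygalae Radix to -2.04 in Aucklandiae Radix, against -6.09 in the vehicle.

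TIPARP, the ADP-ribosyltransferase, was higher at high dose in all 8 extracts. Aucklandiae Radix held 212 and 214 CPM against 74.1, 82.2 and 78.6 in the vehicle, a log2 difference to low dose of 1.34 ± 0.07 (SE). Menthae Herba held 157, 136 and 133 CPM, 0.65 ± 0.06 above its low dose. In the other 6 the high-dose libraries held 99.3 to 126 CPM, each of them above every vehicle library. Against their own low doses the log2 differences were smaller, from 0.24 ± 0.06 in Saengmaek-san to 0.48 ± 0.06 in Guibi-tang. The single Okbyeongpung-san libraries held 124.7 CPM at high dose and 89.1 CPM at low dose. From low to medium dose the fitted differences of TIPARP ran from -0.04 to 0.10, and none passed the test.

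AHRR, the receptor repressor, stood apart at high dose in Aucklandiae Radix. The 2 libraries held 16.2 and 16.6 CPM, against 5.81 and 6.84 CPM at low dose and 6.07, 5.74 and 5.46 CPM in the vehicle. The log2 difference to low dose was 1.37 ± 0.11 (SE). In Menthae Herba, with as much CYP1A1, AHRR at high dose held 6.19, 6.12 and 5.77 CPM, a log2 difference to low dose of -0.27 ± 0.10. All libraries outside Aucklandiae Radix high lay between 5.17 and 7.95 CPM. AHRR shares exons on the same strand with PDCD6, whose mean count was 4961 against 167 for AHRR, so some of its reads may have been divided between them by the authors' counting.

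ALDH3A1, the aldehyde dehydrogenase, was the member that separated the lower doses. From low to medium dose it rose in Aucklandiae Radix, Guibi-tang and Menthae Herba and fell in Polygalae Radix. In Aucklandiae Radix the libraries went from 40.1 and 38.5 CPM at low dose to 70.6 and 70.3 CPM at medium dose. The log2 difference was 0.84 ± 0.05 (SE; adjusted p = 3.51e-16, edgeR). Guibi-tang went from 30.7, 28.9 and 30.4 CPM to 41.6, 42.4 and 41.8 CPM, a log2 difference of 0.48 ± 0.04 (adjusted p = 3.34e-10, edgeR). Menthae Herba went from 27.3, 26.9 and 28.1 CPM to 35.8, 35.3 and 36.5 CPM, a log2 difference of 0.39 ± 0.04 (adjusted p = 5.51e-07, edgeR).

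In Polygalae Radix ALDH3A1 went from 24.7 CPM in both low-dose libraries to 22.5 and 20.1 CPM at medium dose. It fell by 0.21 ± 0.06 (SE) on the log2 scale (adjusted p = 0.0232, edgeR), and this call did not hold with DESeq2 (adjusted p = 0.0523). It was also lost without medium replicate 3 (-0.13, adjusted p = 0.345, edgeR), without low replicate 2 (adjusted p = 0.121, edgeR) and without low replicate 3 (adjusted p = 0.172, edgeR). In Saposhnikoviae Radix (0.23), Soyo-san (0.18) and Saengmaek-san (0.11) the fitted differences were above 0 and did not pass, with adjusted p of 0.453, 1 and 0.983 (edgeR).

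The background of these calls differed greatly between extracts. At an edgeR adjusted p under 0.05, 2 of 8 members were called in Aucklandiae Radix (ALDH3A1 and UGT1A6), against 2.6% of all genes. In Polygalae Radix 1 of 8 was called, against 4.95%. In Guibi-tang 1 of 8 was called against 0.118% of all genes, or 20 genes, and in Menthae Herba 1 of 8 against 0.0294%, or 5 genes. In Saposhnikoviae Radix, Saengmaek-san and Soyo-san no member was called, against 0% of all genes in each. There 2, 3 and 1 members had an unadjusted edgeR p under 0.05, and 9.25%, 4.45% and 2.97% of all genes did. DESeq2 called no member in these 3 extracts and 0, 0 and 2 genes of the table.

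**Figure D4:**
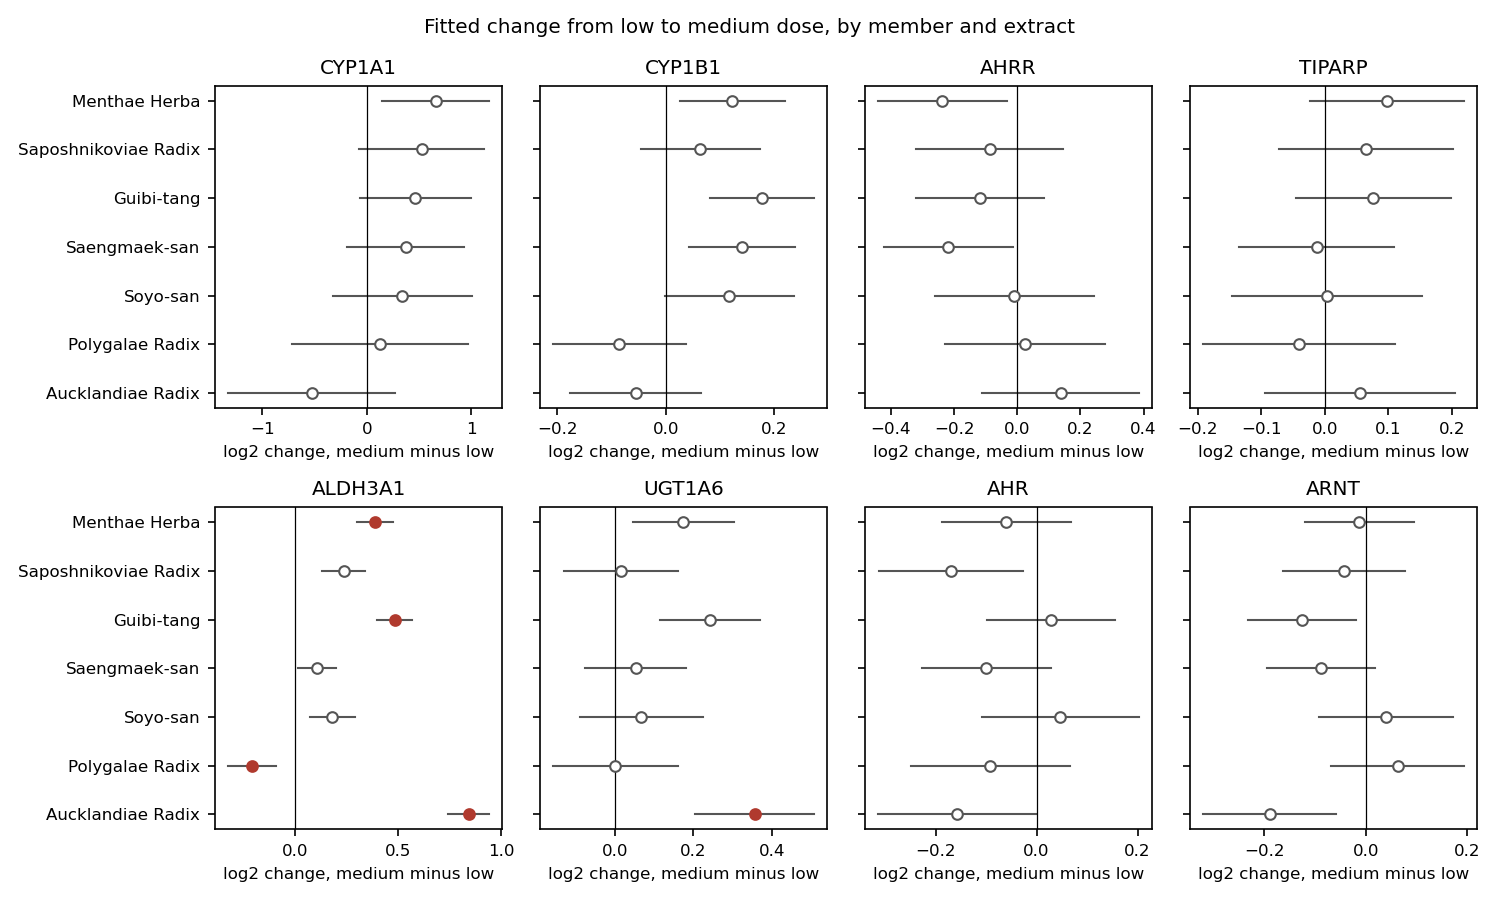
Fitted log2 difference between medium and low dose (horizontal axis, with its own scale in each panel) for the 8 genes in 7 extracts. Points are edgeR estimates, lines their approximate 95% intervals, and filled points passed an adjusted p under 0.05. ALDH3A1 has 4 filled points, 0.84, 0.48, 0.39 and -0.21, and UGT1A6 has 1, 0.36 in Aucklandiae Radix.

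Between extracts of 1 set at medium dose, ALDH3A1 differed in each of the 3 pairs. Polygalae Radix lay below Aucklandiae Radix by a log2 difference of -1.73 ± 0.05 (SE; adjusted p = 4.35e-27, edgeR), at doses of 76 and 74 µg/mL. Saengmaek-san, with 26.2, 25 and 24.9 CPM, lay below Guibi-tang by -0.73 ± 0.04 (adjusted p = 6.65e-16, edgeR). Menthae Herba exceeded Saposhnikoviae Radix, with 27.9, 27.6 and 26.5 CPM, by 0.39 ± 0.04 (adjusted p = 4.92e-07, edgeR). This last call was kept in 10 of 12 alternatives. It was lost with only the compared groups fitted, where 0 genes of the whole table were called. Members called were 3 of 8 in the first pair, against 10.1% of all genes, 1 of 8 in the second, against 0.0648%, and 1 of 8 in the third, against 0.0353%. The step from low to medium dose itself differed between Polygalae Radix and Aucklandiae Radix (-1.055 ± 0.08; adjusted p = 4.27e-13, edgeR), where 2.99% of all genes passed. It also differed between Saengmaek-san and Guibi-tang (-0.38 ± 0.06; adjusted p = 0.00553, edgeR), where 0.0177% of all genes passed. That call was lost without Saengmaek-san low replicate 1 (adjusted p = 0.0761, edgeR), without Guibi-tang low replicate 2 (0.0608) and with only the compared groups fitted (0.611). Between Menthae Herba and Saposhnikoviae Radix it did not pass (0.15, interval 0.01 to 0.29, adjusted p = 0.812, edgeR), and 0% of all genes did. One member had an unadjusted p under 0.05 there, as did 5.99% of all genes, and DESeq2 called none.

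Of the 13 comparisons tested, which share libraries, ALDH3A1 had the smallest p of all 16978 genes in 9. These were the low to medium steps of Aucklandiae Radix, Menthae Herba, Saposhnikoviae Radix and Guibi-tang, the 3 pairs at medium dose, and the first 2 of the differences in step. With the library set aside put back in the fit, which widens the spread shared by all groups, ALDH3A1 passed in Aucklandiae Radix (0.0124, edgeR adjusted p) and in the pair of Polygalae Radix and Aucklandiae Radix (1.87e-08, edgeR adjusted p) and in none of the other 11. In Saposhnikoviae Radix itself, the library set aside held 54.9 CPM, and with it the step from low to medium dose was -0.28 (adjusted p = 0.144, edgeR) in place of 0.23.

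At high dose ALDH3A1 was highest in Guibi-tang, with 98.4, 98 and 98.6 CPM against 28.9, 29.1 and 30.6 in the vehicle. Menthae Herba held 67.6, 67.5 and 69.1 CPM, so that the formula exceeded the herb in this gene while it held less CYP1A1. This formula and this herb belong to different sets, so extract and set cannot be told apart here. In Aucklandiae Radix the order of doses was not monotonic: 33.9 and 31.5 CPM at high dose lay below both the low and the medium dose. Polygalae Radix at high dose held 15.1 and 13.7 CPM, the lowest of all groups. Saposhnikoviae Radix (37.8, 40.6 and 38.3 CPM), Soyo-san (44.4 and 46.6 CPM) and Saengmaek-san (34.7, 34.3 and 37.3 CPM) lay between these groups, all above the vehicle.

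UGT1A6, the glucuronosyltransferase, rose from low to medium dose in Aucklandiae Radix, from 55.3 and 55 CPM to 68.6 and 72.6 CPM. The log2 difference was 0.36 ± 0.08 (SE; adjusted p = 0.00246, edgeR), and without medium replicate 3 it did not pass (0.32, adjusted p = 0.0848, edgeR). At high dose the same extract held 30.3 and 28.5 CPM, below the vehicle libraries of 48.3, 43 and 45.8 CPM. Guibi-tang at high dose held the most, 82.7, 73.1 and 74 CPM. At medium dose Polygalae Radix lay below Aucklandiae Radix by a log2 difference of -0.55 ± 0.08 (adjusted p = 6.99e-07, edgeR).

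UGT1A6 shares its last exons with the rest of the UGT1A locus, so the split of reads among these genes rests on the authors' counting. Of the 8 other UGT1A genes, none passed from low to medium dose in Aucklandiae Radix, where UGT1A6 did (median 0.08 on the log2 scale against 0.00 over all genes). At high dose minus low dose their median was -1.66 in Aucklandiae Radix and 0.49 in Guibi-tang. UGT1A10, the most abundant, had means of 428 CPM at low dose, 440 at medium dose and 136 at high dose in Aucklandiae Radix, against 376 in the vehicle. In Polygalae Radix UGT1A10 fell from low to medium dose by 0.18 ± 0.05 (SE) on the log2 scale (adjusted p = 0.00902, edgeR).

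**Figure D5:**
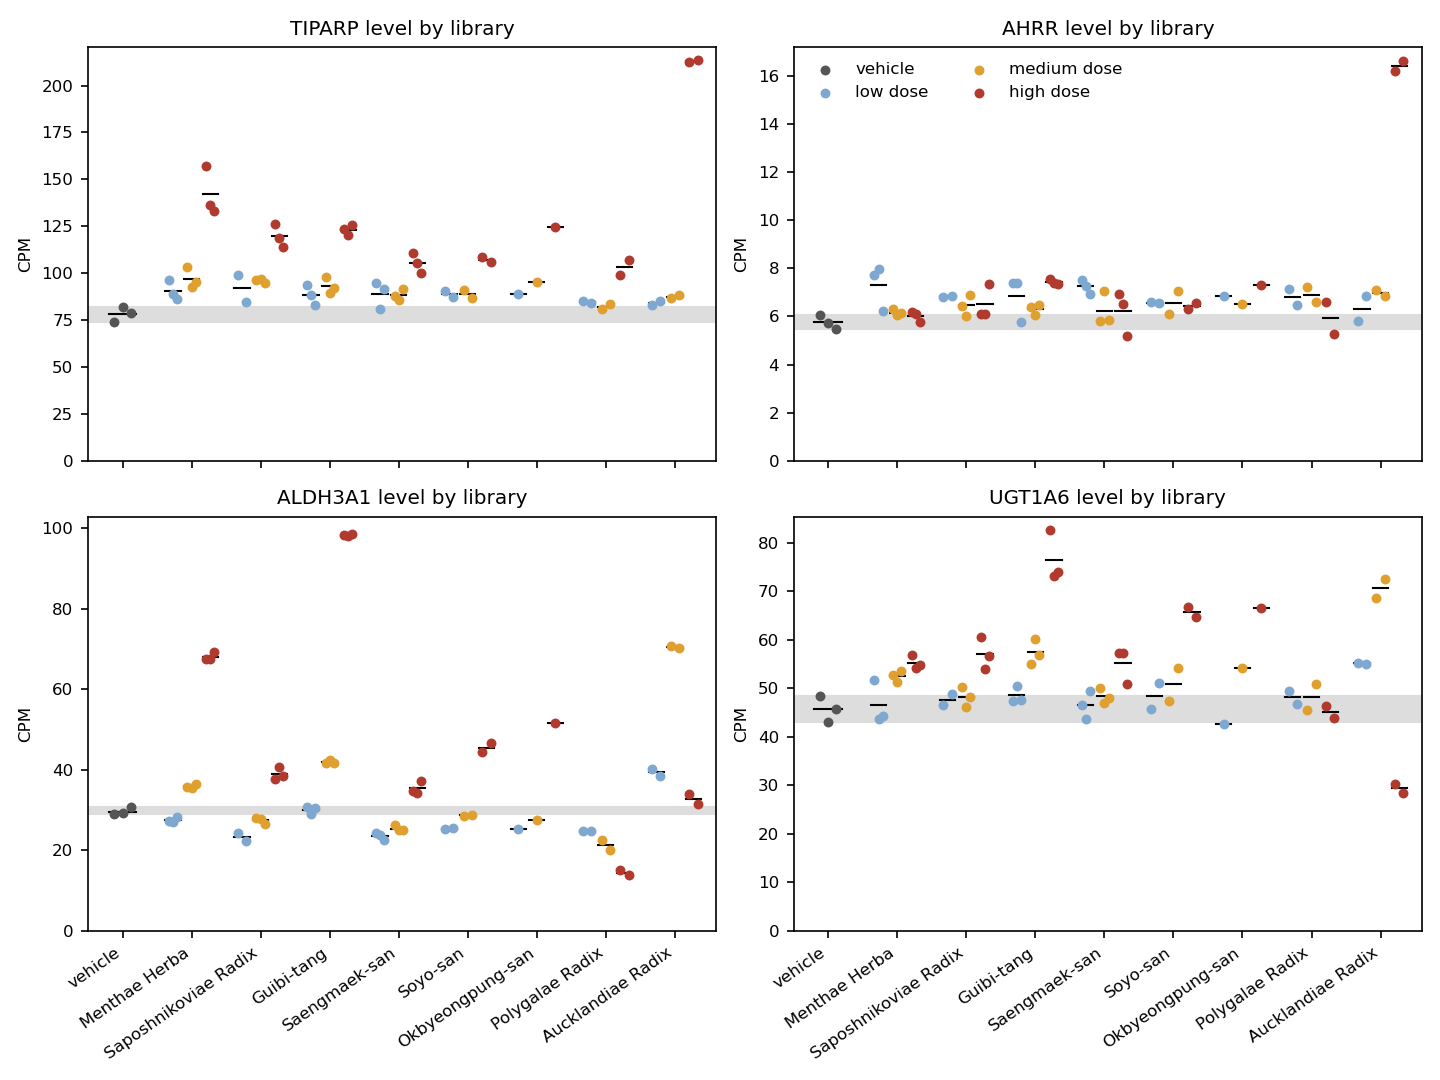
TIPARP, AHRR, ALDH3A1 and UGT1A6 in CPM (vertical axes from 0) in each library, by extract and dose, with group means as black lines and the vehicle range as a grey band. AHRR stands apart in Aucklandiae Radix at high dose alone, at 16.2 and 16.6 CPM, and ALDH3A1 is highest in Guibi-tang at high dose, at 98 to 98.6 CPM.

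The receptor gene AHR varied little. Its levels ran from 108 to 151 CPM over 59 libraries, 1.39-fold between the extremes, with a vehicle mean of 118 ± 9.85 CPM (SD, n = 3). Aucklandiae Radix held 108 and 111 CPM at high dose and 137 and 136 at low dose, a log2 difference of -0.32 ± 0.08 (SE). No medium-dose comparison of AHR passed the test, with differences from low dose of -0.17 to 0.05.

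ARNT, the partner of the receptor, ranged from 27.1 to 40.1 CPM, 1.48-fold. At medium dose it was higher in Polygalae Radix (33.9 and 40.1 CPM) than in Aucklandiae Radix (29.3 and 30.7 CPM), by 0.30 ± 0.06 (SE) on the log2 scale (adjusted p = 9.89e-04, edgeR). Without Polygalae Radix medium replicate 3 the difference was 0.18 and did not pass (adjusted p = 0.121, edgeR), nor did it with only the compared groups fitted (0.2985, adjusted p = 0.0572, edgeR). The lowest high-dose levels were those of Guibi-tang, 28.5, 27.1 and 28.9 CPM, at -0.27 ± 0.05 from its low dose.

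Other known AHR targets were called in 3 extracts from low to medium dose. In Aucklandiae Radix 2 of 8 tested genes of that list rose, where 2.6% of all genes were called (list median 0.15, all genes 0.00). In Guibi-tang 2 of 8 rose, where 0.118% of all genes were called (0.14, all genes -0.00082). In Polygalae Radix 2 of 8 fell, where 4.95% of all genes were called and the list median was nevertheless above 0 (0.13, all genes -0.01). NQO1, a quinone reductase, rose in Aucklandiae Radix by 0.37 ± 0.05 and in Guibi-tang by 0.24 ± 0.04 on the log2 scale, and it fell in Polygalae Radix by 0.20 ± 0.05 (SE; adjusted p = 3.14e-07, 5.24e-04 and 0.00487, edgeR). ABCG2, a drug efflux pump, rose in Guibi-tang by 0.18 ± 0.03 (adjusted p = 0.00336, edgeR). None of the 9 tested genes of the receptor complex and its coactivators passed in any extract in this step, and none of the 3 tested targets of the receptors PXR and CAR did. With 0% to 4.95% of all genes called per extract, the absence of calls among these 9 and 3 genes does not set them apart from the table. All gene lists were chosen with earlier results of these data known, so their counts are a description.

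Targets of NRF2, the regulator of the oxidative stress response, moved at the same step as ALDH3A1. In Aucklandiae Radix 8 of 10 rose from low to medium dose (median 0.33), where 2.6% of all genes were called, among them the aldo-keto reductases AKR1C1 (1.23 ± 0.10) and AKR1B10 (0.81 ± 0.06). In Guibi-tang 2 of 10 rose (0.118% of all genes called) and in Menthae Herba 1 of 10 (0.0294%). AKR1B10 rose in both, in Guibi-tang (0.44 ± 0.05; adjusted p = 8.32e-08, edgeR) and in Menthae Herba (0.29 ± 0.05; adjusted p = 0.00176, edgeR). In Polygalae Radix, where ALDH3A1 fell, 4 of 10 rose, where 4.95% of all genes were called, led by OSGIN1 (0.80 ± 0.10), a growth inhibitor, and the heme oxygenase HMOX1 (0.65 ± 0.09; adjusted p = 6.06e-06, edgeR). NQO1, which NRF2 also regulates but which was counted in the list of AHR targets above, fell there. In Saposhnikoviae Radix, Saengmaek-san and Soyo-san no gene of the whole table passed, so the list has no count to read there. The NRF2 list was chosen with earlier results of these data known, so its counts are a description. The part of this list in the ALDH3A1 result was not tested.

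The genes whose group means followed CYP1A1 most closely were PARL, SLC22A3, TIPARP, GEMIN5 and EPHB6, with Pearson correlations of 0.886, 0.881, 0.879, 0.876 and 0.874 over the means of 22 groups. TIPARP is thus the member nearest to CYP1A1 among 13165 genes compared. CYP1B1 was followed most closely by TAF4B (0.87), EXOSC2 (0.848), PDK4 (0.845), DHX37 (0.834) and YY1 (0.812). CYP1A1 and CYP1B1 themselves correlated at 0.447. UGT1A6 correlated at 0.71 with CYP1B1 and at 0.02 with CYP1A1, and AHRR at 0.412 with CYP1A1 and -0.51 with CYP1B1. These values describe 22 group means, many of which share an extract or a set, and they carry no p.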

How the data were processed

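RNA of 60 HT29 libraries was sequenced, and the submitters' processing notes name FastQC 0.11.9, Trim Galore 0.6.5, STAR 2.7.3a and RSEM 1.3.3 on hg38. The authors deposited estimated counts per gene (expected counts); no source names the annotation release or the strand setting. Values were rounded to whole numbers. Symbols came from a reference list of gene names, and from GENCODE 29 for gene IDs absent from that list. Gene spans and exon lengths came from GENCODE 29. Levels are CPM with TMM scaling. The 56 libraries of 22 groups with 2 or 3 libraries entered 1 edgeR 4.0.16 quasi-likelihood fit with 1 coefficient per group (R 4.3.3, filterByExpr, 34 residual degrees of freedom), with p-values adjusted by Benjamini-Hochberg over 16978 genes and called under 0.05. The script was tested on simulated data. Log2 ratios of CPM used a prior count of 0.5, and the percentages per kilobase of exon used none. The 8 genes and all gene lists were chosen with earlier results of these data known. Named genes are all 8, the called genes of the lists (at most 6 per comparison by size), and the 5 most correlated with CYP1A1 and with CYP1B1; UGT1A10 was named in addition as the most abundant of its locus, after its values were seen. The values of 1 gene of the lists are not reported here. Alternatives were DESeq2 1.42.0, RLE scaling, no filter, a replicate block, fits of the compared groups alone and each library left out. The vehicle's DMSO is 0.1% in the sample labels and 2% in the design text. Okbyeongpung-san, with 1 library a dose, entered no test, and wortmannin was not analysed here.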

Additional observations from a re-analysis of the deposited data

Results flagged for a closer look

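The step of ALDH3A1 from low to medium dose differed between extracts of 1 set in 2 of 3 pairs, by the test of the difference itself. It was -1.055 on the log2 scale for Polygalae Radix minus Aucklandiae Radix, where the gene fell in the first and rose in the second. It was -0.3761 for Saengmaek-san minus Guibi-tang, a call that 14 of 18 alternatives kept.

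Okbyeongpung-san, which entered no test, held several targets at more than 1.5 times the highest vehicle library, a limit chosen after the values were seen. At high dose its library held 4.822 CPM of CYP1A1, 87.23 CPM of CYP1B1, 124.7 CPM of TIPARP and 51.56 CPM of ALDH3A1. At medium dose CYP1A1 was at 1.225 CPM. The library set aside, Saposhnikoviae Radix low replicate 2, held 54.85 CPM of ALDH3A1, while its group mates held 24.3 and 22.3 CPM.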

How the results depend on the processing

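Over 1280 alternative values of the tested genes, 1246 stayed on their side of the threshold, 23 lost the call and 11 gained one. Of the called values, 0 reversed. Values that were not called could change sign. ALDH3A1 from low to medium dose in Saposhnikoviae Radix did so with the library set aside put back (-0.28 in place of 0.23). Members called, of 8, are given here by comparison. From low to medium dose, Polygalae Radix (1) had 0 with the library set aside put back, with no filter, with DESeq2 and with only the compared groups fitted, and 0 to 1 with 1 library left out. Aucklandiae Radix (2) had 1 with the library put back, 4 with only the compared groups and 1 to 2 with 1 library left out. Menthae Herba (1) had 0 and Saposhnikoviae Radix (0) had 1 with the library put back, and Guibi-tang (1) had 0 then and 2 with no filter. At medium dose, Polygalae Radix against Aucklandiae Radix (3) had 1 with the library put back and 2 with only the compared groups, which lost ARNT, Menthae Herba against Saposhnikoviae Radix (1) had 0 then and 0 with only the compared groups, and Saengmaek-san against Guibi-tang (1) had 0 then and 2 with no filter. For the difference in step, Polygalae Radix against Aucklandiae Radix (1) had 0 with the library put back, 2 with no filter, 2 with the replicate block, 2 with DESeq2, 2 with only the compared groups and 1 to 2 with 1 library left out. Saengmaek-san against Guibi-tang (1) had 0 with the library put back, 0 with only the compared groups and 0 to 1 with 1 library left out; the call was lost without Saengmaek-san low replicate 1 or Guibi-tang low replicate 2. The causes were not tested. Deviations from the group mean correlated at -0.0187 to 0.212 between medium-dose and low-dose libraries of the same replicate number. In Saengmaek-san these values were 0.0461 to 0.212, against -0.147 to 0.0617 between other numbers. In Guibi-tang they were 0.0228 to 0.129, against -0.13 to 0.01. With 2 libraries in both groups the values are equal and opposite by construction and cannot show pairing. The main fit did not pair libraries, and the replicate block changed no other count of members. Genes called over the whole table from low to medium dose moved in both directions. With the library put back, Saposhnikoviae Radix, its own extract, had 4359 in place of 0, while Polygalae Radix had 86 in place of 840 and Aucklandiae Radix 50 in place of 442, and that pair at medium dose 300 in place of 1713. Without the filter, Saposhnikoviae Radix had 399 in place of 0, Menthae Herba 128 in place of 5 and Guibi-tang 134 in place of 20. The medium-dose ratio test had an adjusted permutation p of 0.988 over the 5 extracts at equal doses and 0.0115 to 0.135 with 1 library left out. Of 616 alternative high-dose differences, 17 moved by more than 1 SD. CYP1A1 at 6 to 34 reads a library outside the raised groups limits what could be detected.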
